A study of Mus musculus with 12 samples.

Results

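The 9 genes described here are the chemokines, chemokine receptors and adhesion molecules best known for bringing lymphocytes to the intestine. They are Ccl20 and its receptor Ccr6, Ccl25 and its receptor Ccr9, Ccl28, the vascular addressin Madcam1, and the integrin subunits Itga4, Itgb7 and Itgae. The members were chosen by name, as the rows of the deposited count table whose Ensembl identifier maps to these symbols, and all 9 of 9 were found among 46603 genes. All 9 passed the filter on low counts in both tissues.

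The 4 groups were ileum and ankle synovium of TNFdARE mice and of their littermate control WT mice, with 3 libraries of poly-A RNA per group and 12 in all. TNFdARE mice carry a Tnf gene that lacks its AU-rich element, a stretch that limits how long the Tnf message lasts, and the strain is a known model of ileal inflammation with arthritis. The labels give no age, sex or zygosity, and they do not say whether an ileum and a synovium came from the same animal. The series title concerns regulatory T cells in gut against joint inflammation, and the question followed here is how the gut-homing genes differ with genotype in each tissue. Whole tissue was measured, so fewer cells of a type and less RNA per cell cannot be told apart.

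A lymphocyte enters the intestine when an integrin on its surface grips an addressin on the vessel wall, and chemokines made by the epithelium then draw it onward. The integrin of Itga4 and Itgb7 products (α4β7) binds MAdCAM-1 on venules of the gut, whereas the same α4 chain paired with the product of Itgb1 binds VCAM-1 and fibronectin and is used widely. CCL25 of the small intestine attracts cells with CCR9, CCL28 of mucosal epithelium attracts cells with CCR10 or CCR3, and CCL20 attracts cells with CCR6, among them B cells, Th17 cells and dendritic cells. Inside the epithelium the β7 chain pairs with αE, the product of Itgae (CD103), which holds lymphocytes to E-cadherin, the product of Cdh1.

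Library totals lay between 14267834 and 16224402 counts, and each level is given as CPM, a count relative to the size of its library, corrected by the trimmed mean of M-values (TMM). The floor of 3 counts, below which a level cannot be told from 0, was 0.185 to 0.210 CPM before TMM; it covers counting error only. Tnf, the modified gene, lay between 17.2 and 82.7 CPM in TNFdARE ileum against 1.39 to 2.63 CPM in WT ileum, and between 28.3 and 38.4 against 1.89 to 2.15 CPM in synovium. Cdx2, an intestinal transcription factor, was at 0 in all 6 synovium libraries, and Prg4, the lubricin gene of the joint lining, averaged 13803 CPM in WT synovium and 0.117 CPM in WT ileum. Skeletal muscle genes differed between the synovium groups: their 8 markers summed to 2041 to 8154 CPM in TNFdARE and 12052 to 21917 CPM in WT, and the part of this in the synovium results was not tested. By Xist and Y-linked counts replicate 3 was female, and replicates 1 and 2 were male, in all 4 groups. Nothing beyond the term biological replicate says that the 3 libraries of a group came from separate mice, and p-values measure the spread between these libraries.

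Of the 9 genes, 8 have an entry in the RefSeq promoter table of GRCm38.p6. The promoters of Ccl20 and Madcam1 are printed, because these 2 genes had the highest fold changes after Ccr6 in the ileum and share a motif that the other 6 lack. The motif searched was GGGAAANNCC, a form of the site bound by NF-kB proteins, on both strands in the 250 bases before the start site. It was chosen after the sequences were seen. Capitals mark the matches, each sequence runs 5′ to 3′ on the plus strand and ends at the base before the start site.
Ccl20, chr1:83116516-83116765: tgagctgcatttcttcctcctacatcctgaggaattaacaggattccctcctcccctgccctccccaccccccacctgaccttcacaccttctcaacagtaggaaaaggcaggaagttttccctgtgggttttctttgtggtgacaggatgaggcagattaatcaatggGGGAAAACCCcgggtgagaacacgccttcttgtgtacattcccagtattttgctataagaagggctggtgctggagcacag
Madcam1, chr10:79664309-79664558: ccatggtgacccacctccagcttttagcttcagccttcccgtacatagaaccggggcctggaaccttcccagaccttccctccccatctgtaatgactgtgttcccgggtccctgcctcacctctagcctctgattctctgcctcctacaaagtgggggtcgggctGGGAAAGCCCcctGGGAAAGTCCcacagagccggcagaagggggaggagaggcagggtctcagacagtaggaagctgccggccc

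The match in Ccl20 begins 81 bases before the start site and those in Madcam1 begin 84 and 71 bases before it. Of 32851 promoter windows of the same length, 537 held the motif, which is 1.63%. A looser form, GGGNNNNNCC, of which every match above is also a match, stood in 45.8% of all windows and in 6 of the 10 windows of the members, so it does not set them apart. A match is a run of letters and says nothing about binding.

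The plot of all 9 genes by library gives an overview before the members are taken in turn. In the ileum, TNFdARE replicate 1 was the highest library for 6 of the 9 genes and TNFdARE replicate 2 was the lowest TNFdARE library for 7. In the synovium, the chemokine and addressin genes other than Ccl20 stayed below 4 CPM in every library.

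**Figure D1:**
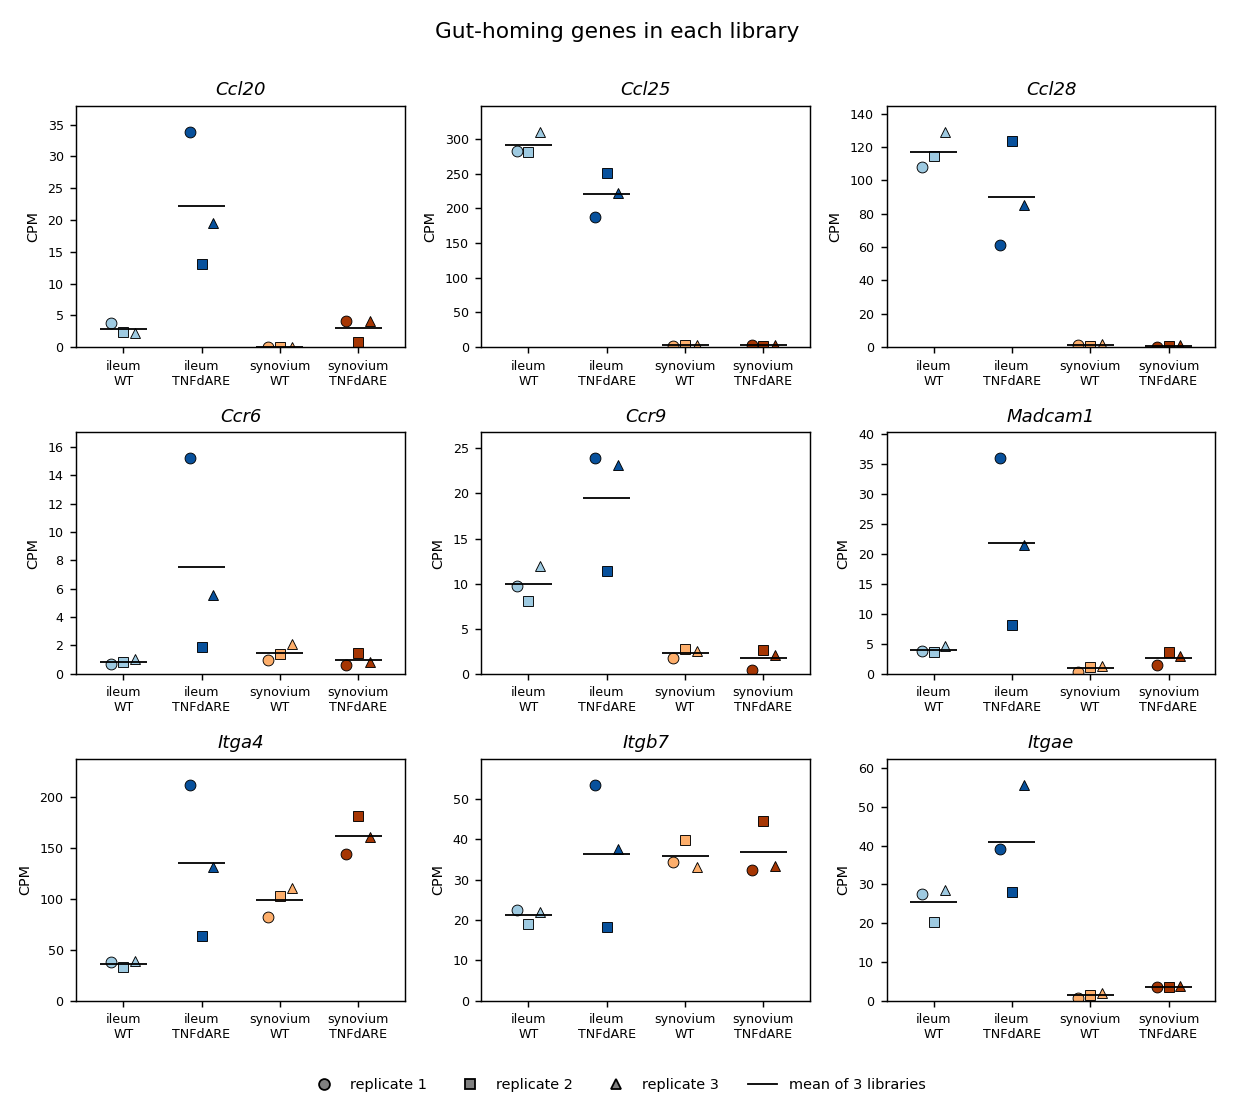
Level of each of the 9 genes in CPM (vertical axis, linear, starting at 0) in the 12 libraries, by group, with the marker shape giving the replicate number and the bar the mean of 3 libraries. Ccl25 and Ccl28 are ileum genes in both genotypes, Itga4 and Itgb7 are present in both tissues, and the 3 TNFdARE ileum libraries are spread widely for most genes.

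The chemokine ligands are taken first. In WT ileum, Ccl25 was the highest of the 9 genes per kilobase of transcript and Ccl28 the next, whether length was the union of all exons (39.2 and 24.2 CPM per kilobase) or the principal transcript (275.7 and 31.4). Ccl25 (ENSMUSG00000023235, chromosome 8, 4325210 to 4360020, plus strand, GRCm38) overlaps Elavl1 on the opposite strand. Whether counting used the strand is not given in the sources used here, so reads of the 2 genes may not be told apart.

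Ccl25 read 282.7, 281.9 and 310.6 CPM in WT ileum replicates 1, 2 and 3, and 187.5, 250.7 and 222.8 CPM in TNFdARE ileum. Every TNFdARE library lay below every WT library. Its log2 fold change of -0.40 ± 0.12 (SE) did not pass the test (edgeR quasi-likelihood, Benjamini-Hochberg adjusted p = 0.0801). The intestinal epithelium markers moved with it: their 8 genes summed to 12354 to 15794 CPM in TNFdARE and 16989 to 18453 CPM in WT ileum, with 0 of 8 called. Per 100 counts of Epcam, an epithelial surface protein, Ccl25 stood at 12.1, 11.1 and 11.2 in TNFdARE and 12.1, 11.6 and 13.4 in WT ileum. These ratios overlapped between genotypes, with a mean log2 difference of -0.10 (exact permutation test, two-sided, p = 0.3).

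In the synovium Ccl25 lay between 2.07 and 2.72 CPM in TNFdARE and between 2.22 and 3.19 CPM in WT. The groups overlapped, and the log2 difference of -0.09 ± 0.25 (adjusted p = 0.818) turned positive without replicate 2 of either genotype (0.02 and 0.06). Between the tissues Ccl25 was higher in ileum by a log2 difference of 6.76 ± 0.17 in WT (adjusted p = 1.33e-10) and 6.48 ± 0.16 in TNFdARE (adjusted p = 1.82e-10).

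Ccl28 (ENSMUSG00000074715, chromosome 13, 119623819 to 119654359, plus strand) was, like Ccl25, an ileum gene. It read 108.2, 114.4 and 129.3 CPM in WT ileum and 61.4, 123.5 and 85.5 CPM in TNFdARE ileum. TNFdARE replicate 2 lay within the WT range and the other 2 TNFdARE libraries below it. The log2 fold change was -0.38 ± 0.25 (adjusted p = 0.342), and per 100 counts of Epcam the genotypes overlapped as well, at 3.97 to 5.47 in TNFdARE and 4.62 to 5.58 in WT.

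In the synovium Ccl28 was near the floor, between 0.24 and 0.985 CPM in TNFdARE and between 0.846 and 1.76 CPM in WT, and its genotype difference of -0.82 ± 0.54 did not pass (adjusted p = 0.307). It was higher in ileum than in synovium by a log2 difference of 6.61 ± 0.38 in WT and 7.07 ± 0.40 in TNFdARE (adjusted p = 7.04e-08 and 8.23e-08).

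Ccl20 (ENSMUSG00000026166, chromosome 1, 83116766 to 83119167, plus strand) was the ligand that differed most with genotype. It read 3.81, 2.41 and 2.18 CPM in WT ileum and 33.9, 13.0 and 19.5 CPM in TNFdARE ileum. All 3 TNFdARE libraries were above all WT libraries, and the lowest of them was over 3 times the highest WT value. Ccl20 rose by a log2 fold change of 2.98 ± 0.42 (adjusted p = 0.0404). It was the only member called in the ileum, 1 of 9, against 5.68% of all 15462 genes tested (4.12% higher and 1.57% lower in TNFdARE). The call ended without TNFdARE replicate 3 (adjusted p = 0.155) or without any of the 3 WT libraries (0.15 to 0.174), while the log2 fold change stayed between 2.83 and 3.27 in those fits. Its counts per 100 of Epcam were 2.19, 0.574 and 0.984 in TNFdARE and 0.163, 0.0992 and 0.0941 in WT ileum, again without overlap.

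In WT synovium Ccl20 had no count in any of the 3 libraries. In TNFdARE synovium it had 69, 14 and 71 counts, or 4.13, 0.806 and 4.11 CPM. Replicate 2 was the lowest, and all 3 libraries lay above the floor. Summed over the groups, 154 counts against 0 made Ccl20 at least 46.6-fold higher in TNFdARE, with 3 counts over the WT group as the floor, and the gene rose by the test across all genes (adjusted p = 0.0222). It passed the filter on low counts only through the TNFdARE group, so that it had to differ once it was tested. The call ended without TNFdARE replicate 1 (adjusted p = 0.0631) or 3 (0.0722).

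Ccl20 was higher in ileum than in synovium in both genotypes, at least 38.2-fold in WT against the same floor of 3 counts and by a log2 difference of 2.87 ± 0.58 in TNFdARE (adjusted p = 0.00218). The difference of its 2 genotype effects was -5.55 on the log2 scale and did not pass (adjusted p = 0.112); with the replicate number as a block within tissue it was -5.59 and passed (adjusted p = 0.0163). Its size depends on the prior count, because WT synovium was at 0.

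Some of the listed inducers of Ccl20 and of the listed epithelial NF-kB targets rose in each tissue. Of the inducers, a list of cytokines, receptors and NF-kB family regulators known to act on Ccl20, 3 rose and 1 fell of 12 tested in the ileum, and 9 rose and 0 fell of 11 in the synovium, the latter with Tnf, Nfkb1, Il1b and Nfkbiz at the smallest adjusted p. Tnf is the modified gene itself, so its call in each tissue says nothing about the inducers as a class. In the ileum Tnf (log2 fold change 4.70), Il1b (4.93) and Il1a (4.72) rose, and Il17rc, a subunit of the IL-17 receptor, fell by 0.77. The median log2 fold change was 0.48 in the ileum list and 0.52 in the synovium list, beside 0.00 over all genes in each tissue. Of the epithelial NF-kB targets, 4 of 12 tested rose in the ileum (Cxcl5, Saa3, Cxcl1 and Lcn2, neutrophil-attracting or antimicrobial products) and none fell. In the synovium 9 of 11 rose and none fell. The list is named for epithelium, but its genes are not confined to it: Lcn2 averaged 186.3 CPM in WT synovium and 2.08 CPM in WT ileum. Over all genes tested, 4.12% were called higher and 1.57% lower in ileum, and 13.1% higher and 10.7% lower in synovium.

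Per kilobase of transcript, the receptors Ccr6 and Ccr9 were the lowest of the 9 genes in WT ileum under both lengths. Ccr6 (ENSMUSG00000040899, chromosome 17, 8236043 to 8257141, plus strand), the receptor of CCL20, read 0.693, 0.803 and 1.06 CPM in WT ileum and 15.2, 1.9 and 5.55 CPM in TNFdARE ileum. All TNFdARE libraries were above WT, but replicate 1 was 8.02 times replicate 2. With that spread the log2 fold change of 3.15 ± 0.81, the highest of the 9 genes, did not pass (adjusted p = 0.0698).

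B cell markers moved with Ccr6 across the same libraries. The 7 B cell markers, which include Cd79a and Ms4a1, summed to 209.5, 13.4 and 54.6 CPM in TNFdARE ileum replicates 1, 2 and 3, and to 13.7, 8.54 and 12.2 CPM in WT ileum. Replicate 1 was the highest and replicate 2 the lowest TNFdARE library for both. Of the 5 B cell markers tested in the ileum, 0 were called. Relative to Ptprc, the CD45 gene of all leukocytes, Ccr6 overlapped between genotypes at 3.37, 1.31 and 1.82 per 100 counts in TNFdARE and 0.911, 1.23 and 1.31 in WT ileum. The mean log2 difference of this ratio was 0.77 (exact permutation test, unpaired, p = 0.2). Within same-numbered libraries the TNFdARE ratio was the higher in 3 of 3 pairs, but the numbers are not known to pair mice. In replicate 2 the ratios rest on 27 counts of Ccr6 in TNFdARE and 11 in WT. Such pairs are given for this ratio only. The part of B cells in the Ccr6 difference was not tested.

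In the synovium Ccr6 read 0.97, 1.43 and 2.09 CPM in WT and 0.599, 1.44 and 0.869 CPM in TNFdARE. The groups overlapped, and the log2 difference was -0.59 ± 0.44 (adjusted p = 0.364). The B cell markers were lower in every TNFdARE library there, at 66.2 to 141.5 CPM in TNFdARE and 147.2 to 299.3 CPM in WT, with 1 of 7 called, Cr2. Relative to 100 counts of Ptprc, Ccr6 stood at 0.221, 0.423 and 0.29 in TNFdARE and 0.587, 0.635 and 1.03 in WT synovium, without overlap (mean log2 difference -1.26, exact permutation p = 0.1).

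Ccr6 was the only member whose genotype effect differed between the tissues by the interaction test, 1 of 9 against 12.1% of 16964 genes tested (6.8% with the effect higher in ileum and 5.28% lower). The difference of the effects was 3.77 ± 0.96 on the log2 scale (adjusted p = 0.0321). Among the B cell markers 4 of 7 passed the same test in the same direction. The call for Ccr6 ended when any of 8 of the 12 libraries was left out (adjusted p 0.0526 to 0.0769), with the difference between 3.45 and 3.95 in those fits.

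Ccr9 (ENSMUSG00000029530, chromosome 9, 123678439 to 123784330, plus strand), the receptor of CCL25, shares its span with predicted genes on the same strand and with Lztfl1 and Slc6a20a on the other, so its reads may not all be its own. It read 9.7, 8.03 and 12 CPM in WT ileum and 23.9, 11.4 and 23.2 CPM in TNFdARE ileum. TNFdARE replicates 1 and 3 were above WT and replicate 2 fell inside the WT range. At a log2 fold change of 0.98 ± 0.31 it did not pass (adjusted p = 0.0969).

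Set against leukocytes the order turned round, and Ccr9 per 100 counts of Ptprc stood at 5.29, 7.88 and 7.61 in TNFdARE and 12.8, 12.3 and 14.9 in WT ileum, without overlap. In the synovium Ccr9 was low and overlapping, at 0.479, 2.65 and 2.14 CPM in TNFdARE and 1.73, 2.8 and 2.48 CPM in WT (log2 difference -0.38 ± 0.55, adjusted p = 0.661), and without TNFdARE replicate 1 the difference was 0.06. Ccr9 was higher in ileum than in synovium by 2.08 ± 0.47 in WT and 3.46 ± 0.48 in TNFdARE on the log2 scale (adjusted p = 0.00203 and 8.62e-05).

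The addressin Madcam1 (ENSMUSG00000020310, chromosome 10, 79664559 to 79668537, plus strand) was higher with TNFdARE in all libraries of both tissues. In the ileum it read 3.74, 3.58 and 4.64 CPM in WT and 35.9, 8.09 and 21.4 CPM in TNFdARE. The groups were apart, with replicate 1 of TNFdARE 4.44 times replicate 2. The log2 fold change of 2.46 ± 0.55 missed the threshold (adjusted p = 0.0543).

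In the synovium Madcam1 read 0.277, 1.17 and 1.37 CPM in WT and 1.44, 3.69 and 3.01 CPM in TNFdARE. The groups were apart, though TNFdARE replicate 1 was barely above WT replicate 3. The log2 fold change of 1.54 ± 0.57 did not pass (adjusted p = 0.0916); with the replicate number as a block it was 1.61 and passed (adjusted p = 0.0116). The genotype effects of the 2 tissues differed by 0.94 ± 0.85 (adjusted p = 0.508).

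Madcam1 was also set against the vessels. The 6 endothelium markers summed to 162.5 to 180.4 CPM in TNFdARE and 146.2 to 163.2 CPM in WT ileum, and to 537.0 to 647.1 and 710.5 to 747.9 CPM in synovium. Madcam1 per 100 counts of that list stood at 19.9, 4.98 and 12.4 in TNFdARE and 2.49, 2.45 and 2.84 in WT ileum, and at 0.222, 0.686 and 0.528 against 0.0371, 0.165 and 0.184 in synovium. In both tissues every TNFdARE ratio was above every WT ratio, by a mean log2 difference of 2.04 in ileum and 1.99 in synovium. With 1 library left out these ran from 1.60 to 2.59 and from 1.29 to 2.47; the lowest synovium value was without WT replicate 1, which held 4 counts of Madcam1. Each such comparison of 3 against 3 libraries gave the smallest p the exact permutation test allows, 0.1.

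Nkx2-3, a transcription factor known to be needed for Madcam1 in gut vessels, was measured beside it. It read 17.5, 15.2 and 20.4 CPM in WT and 12.6, 15.8 and 14.5 CPM in TNFdARE ileum, with overlap (log2 fold change -0.30 ± 0.15, adjusted p = 0.218). In the synovium Nkx2-3 was at 0 in 5 of 6 libraries and at 0.0693 CPM in the sixth, under the floor. Of the list of addressin vessels and lymphoid organisers, 2 of 10 tested rose in the ileum, Cxcl13, which attracts B cells, and Icam1, a ligand of leukocyte β2 integrins. In the synovium 6 of 10 rose, among them Icam1, Cxcl13 and Sele, and 1 fell, Chst2, a sulphotransferase that helps to make selectin ligands. Over all genes tested, 4.12% were called higher in ileum, and 13.1% higher and 10.7% lower in synovium.

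Vcam1, the other vascular ligand of the α4 integrins, read 19.9, 13.6 and 15.7 CPM in WT and 121.1, 32.7 and 66.9 CPM in TNFdARE ileum. In the synovium it was high in both genotypes, at 146.0, 261.6 and 237.7 CPM in WT and 213.9, 233.7 and 242.7 CPM in TNFdARE. The ileum groups were apart and the synovium groups overlapped, with log2 fold changes of 2.17 ± 0.49 (adjusted p = 0.0551) and 0.13 ± 0.21 (adjusted p = 0.711). The difference between these effects passed the interaction test, at 2.07 ± 0.55 (adjusted p = 0.037).

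**Figure D2:**
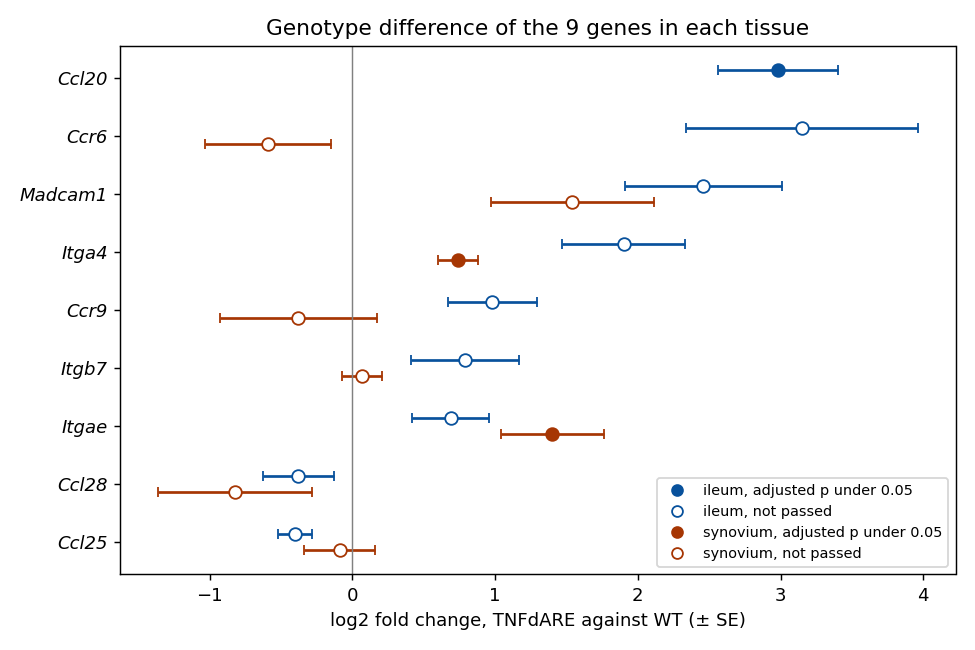
Log2 fold change of TNFdARE against WT (horizontal axis) with its standard error for the 9 genes in ileum (blue) and synovium (brown), filled where the adjusted p was under 0.05. Ccl20 is filled at 2.98 in the ileum and left out in the synovium, where WT had no count; Itga4 and Itgae are filled in the synovium, and Ccr6 lies at 3.15 in the ileum and -0.59 in the synovium.

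The integrin subunits were present in both tissues. Itga4 (ENSMUSG00000027009, chromosome 2, 79255426 to 79333123, plus strand), which overlaps Cerkl on the opposite strand, read 38.0, 32.6 and 38.7 CPM in WT ileum and 211.8, 63.5 and 131.0 CPM in TNFdARE ileum. The groups were apart, with the same order of TNFdARE libraries as for Ccl20. The log2 fold change of 1.90 ± 0.43 just missed the threshold (adjusted p = 0.0558).

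In the synovium Itga4 read 82.5, 103.1 and 110.6 CPM in WT and 143.8, 181.6 and 160.4 CPM in TNFdARE. Each TNFdARE library was above each WT library, and Itga4 rose by 0.74 ± 0.14 on the log2 scale (adjusted p = 0.00942). In a model of all 12 libraries, which gives both tissues 1 estimate of spread, the same difference was 0.71 and did not pass (adjusted p = 0.145). With Ccl20 and Itgae it made 3 of 9 members called in the synovium, all higher (2 besides Ccl20, which was tested only through its TNFdARE counts), against 23.8% of 15599 genes tested (13.1% higher and 10.7% lower).

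Ptprc moved almost in step with Itga4. It rose in the ileum by 2.03 ± 0.41 (adjusted p = 0.049) and in the synovium by 0.65 ± 0.14 (adjusted p = 0.0163). Per 100 counts of Ptprc, Itga4 stood at 46.9, 43.9 and 42.9 in TNFdARE and 49.9, 49.9 and 48.1 in WT ileum, and at 53.0, 53.3 and 53.6 against 50, 45.7 and 54.3 in synovium. Across all 12 libraries the ratio therefore stayed between 42.9 and 54.3. The genotype difference of the ratio was -0.15 on the log2 scale in ileum, where the groups did not overlap, and 0.10 in synovium, where they did; with 5 pan-leukocyte genes as the denominator the synovium value was -0.08.

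Itgb7 (ENSMUSG00000001281, chromosome 15, 102215995 to 102231944, minus strand) did not follow Itga4. It read 22.4, 19.0 and 22.0 CPM in WT ileum and 53.5, 18.2 and 37.7 CPM in TNFdARE ileum. TNFdARE replicate 2 was below all WT libraries and the other 2 were above them, and the log2 fold change was 0.79 ± 0.38 (adjusted p = 0.213). In the synovium it read 34.5, 39.8 and 33.2 CPM in WT and 32.3, 44.5 and 33.5 CPM in TNFdARE, with a log2 difference of 0.07 ± 0.14 (adjusted p = 0.774) that became -0.09 without TNFdARE replicate 2.

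Set against leukocytes, Itgb7 was lower in TNFdARE in both tissues. Per 100 counts of Ptprc it stood at 11.8, 12.6 and 12.3 in TNFdARE and 29.4, 29.0 and 27.4 in WT ileum, and at 11.9, 13.1 and 11.2 against 20.9, 17.7 and 16.3 in synovium. The 6 TNFdARE libraries of both tissues lay between 11.2 and 13.1, and neither tissue's groups overlapped. The mean log2 differences were -1.22 in ileum and -0.60 in synovium.

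The 2 chains of the α4β7 integrin thus stood in another proportion in each genotype. Itgb7 per 100 counts of Itga4 was 58.9, 58.2 and 56.9 in WT and 25.2, 28.6 and 28.8 in TNFdARE ileum, a mean log2 difference of -1.08. In the synovium the ratio was 41.8, 38.6 and 30.0 in WT and 22.5, 24.5 and 20.9 in TNFdARE, a difference of -0.69. The groups were apart in both tissues, each at the smallest exact p of 0.1 (0.136 after Benjamini-Hochberg adjustment over the 19 ratio comparisons). Macrophages are among the cells that carry Ptprc, and their 6 markers summed higher in TNFdARE than in WT in each tissue. The sums were 948.2 to 4505 CPM in TNFdARE and 220.9 to 287.9 CPM in WT ileum, with 3 of 6 called higher. In synovium they were 4549 to 6070 and 1512 to 1929 CPM, with 5 of 6 called higher. Among TNFdARE ileum replicates 1, 2 and 3 the sums were 4505, 948.2 and 2478 CPM. Itgb7 per 100 counts of Itga4 was 25.2, 28.6 and 28.8 in the same libraries. The 10 T cell markers summed to 72.6 to 229.8 CPM in TNFdARE and 64.9 to 92.3 CPM in WT ileum, with 0 of 10 called. In the synovium they summed to 57.4 to 65.6 CPM in TNFdARE and 50.2 to 56.1 CPM in WT, but the list was mixed: Cd4 rose, Cd8a, Cd8b1 and Lck fell, and the median log2 fold change was -0.71. Without Cd4 the sum of the other 9 markers was lower in every TNFdARE synovium library, at 22.1 to 25 CPM against 25.4 to 34 CPM in WT. Single markers of the 9 did not all go that way: Cd2 averaged 9.57 CPM in TNFdARE and 7.04 CPM in WT, with overlap. The part of either cell class in the ratios was not tested.

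**Figure D3:**
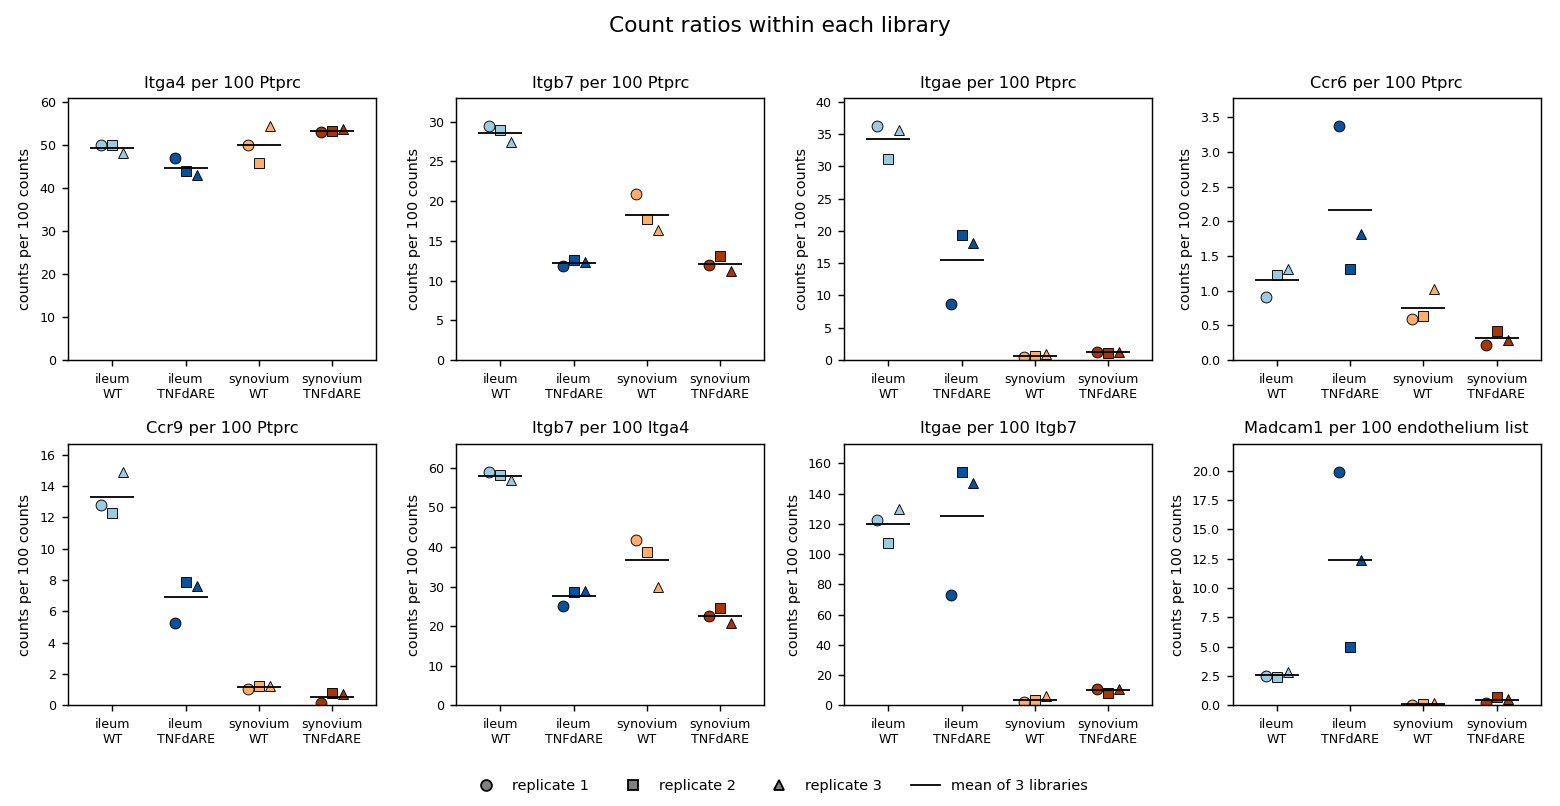
Counts of a gene per 100 counts of a second gene or list (vertical axis, linear, starting at 0) in the 12 libraries by group, with marker shape for the replicate number and a bar for the mean of 3 libraries. Itga4 per 100 Ptprc stays between 42.9 and 54.3 in all 12 libraries, while Itgb7 per 100 Ptprc and per 100 Itga4 is lower in every TNFdARE library than in the WT libraries of its tissue.

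Itgb1, the other partner of the α4 chain, was high and nearly level. It read 502.7 to 533.2 CPM in WT and 518.4 to 522.8 CPM in TNFdARE ileum (log2 fold change 0.02 ± 0.07, adjusted p = 0.872). In the synovium it read 615.5 to 709.7 CPM in WT and 726.6 to 847.1 CPM in TNFdARE, which did not overlap (0.29 ± 0.10, adjusted p = 0.064). Fn1, the fibronectin gene, overlapped between genotypes in both tissues, with adjusted p = 0.264 in ileum and 0.721 in synovium.

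Itgae (ENSMUSG00000005947, chromosome 11, 73090583 to 73147446, plus strand) overlaps Haspin on the opposite strand. It read 27.5, 20.4 and 28.6 CPM in WT ileum and 39.1, 28.0 and 55.6 CPM in TNFdARE ileum. Replicate 2 of TNFdARE lay inside the WT range and replicate 3 was the highest, unlike the other integrin genes. The difference of 0.69 ± 0.27 on the log2 scale did not pass (adjusted p = 0.147).

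In the ileum Itgae per 100 counts of Ptprc was lower in every TNFdARE library, at 8.66, 19.4 and 18.2 against 36.2, 31.1 and 35.6 in WT (exact permutation p = 0.1), a mean log2 difference of -1.24. The markers of intraepithelial lymphocytes overlapped between genotypes at 45.7 to 120.1 CPM in TNFdARE and 95.7 to 139.3 CPM in WT ileum, with 1 of 8 called, Trdc, which fell. Relative to Itgb7, its partner chain, Itgae showed no steady direction in the ileum: the mean log2 difference was -0.01 (exact permutation p = 1).

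In the synovium Itgae was higher with TNFdARE, both as CPM and relative to leukocytes. It read 0.693, 1.43 and 2.02 CPM in WT and 3.54, 3.57 and 3.71 CPM in TNFdARE, so that the TNFdARE libraries were close together and all above WT. The WT values rest on 10, 22 and 31 counts. Itgae rose by 1.40 ± 0.36 on the log2 scale (adjusted p = 0.0313). The call ended without any of the 3 TNFdARE libraries (adjusted p 0.0655 to 0.0874) or without WT replicate 2 (0.0712), while the log2 fold change stayed between 1.38 and 1.42 in those fits. Its counts per 100 of Ptprc were 1.3, 1.05 and 1.24 in TNFdARE and 0.42, 0.635 and 0.994 in WT synovium, which did not overlap (mean log2 difference 0.86, exact permutation p = 0.1). Relative to 100 counts of Itgb7, Itgae stood at 10.9, 8.02 and 11.1 in TNFdARE and 2.01, 3.59 and 6.09 in WT synovium, a difference of 1.46. The difference between the Itgae effects of the tissues did not pass (-0.69 ± 0.45, adjusted p = 0.338).

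Cdh1, which encodes the ligand of αEβ7, was higher in the same TNFdARE synovium libraries. It read 2.84, 2.28 and 3.65 CPM in WT and 12.8, 15.1 and 14 CPM in TNFdARE synovium, and rose by 2.28 ± 0.20 (adjusted p = 0.000696). The groups were far apart relative to their spread. Of the 8 intestinal epithelium markers, 5 were tested in the synovium: Cdh1 rose, Lgals4 fell and 3 were not called. Over all genes tested there, 13.1% were called higher and 10.7% lower. Lgals4 averaged 12.8 CPM in TNFdARE and 22.3 CPM in WT synovium (adjusted p = 0.038). Krt8, a keratin of simple epithelium, stayed at 9 counts or fewer in each synovium library, Vil1 at 19 or fewer and Cdx2 at 0. Vil1 averaged 0.273 CPM in TNFdARE and 1.02 CPM in WT, without overlap, and did not pass (adjusted p = 0.0629). Epcam, at 5.91 to 8.64 CPM in TNFdARE and 5.99 to 7.2 CPM in WT synovium, overlapped. In the ileum Cdh1 was at 1046 CPM in TNFdARE and 1109 CPM in WT on average (log2 fold change -0.08 ± 0.10, adjusted p = 0.626), and the effects differed between tissues (-2.34 ± 0.20, adjusted p = 0.000349).

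The receptors of CCL28 complete the partners. Ccr10 read 2.56, 2.12 and 1.76 CPM in WT and 4.7, 3.8 and 4.14 CPM in TNFdARE ileum, without overlap, and missed the threshold at 0.98 ± 0.22 (adjusted p = 0.0518). In the synovium it was too low to be tested. Ccr3, an eosinophil receptor, read 0.831, 0.657 and 1.13 CPM in WT and 2.03, 1.69 and 2.88 CPM in TNFdARE ileum (1.33 ± 0.33, adjusted p = 0.0604). In the synovium the order was the opposite, at 5.2, 14.9 and 8.68 CPM in WT and 2.94, 3.69 and 3.88 CPM in TNFdARE, and Ccr3 fell by 1.42 on the log2 scale (adjusted p = 0.0371). Its effects differed between the tissues by 2.78 ± 0.55 (adjusted p = 0.0115).

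**Figure D4:**
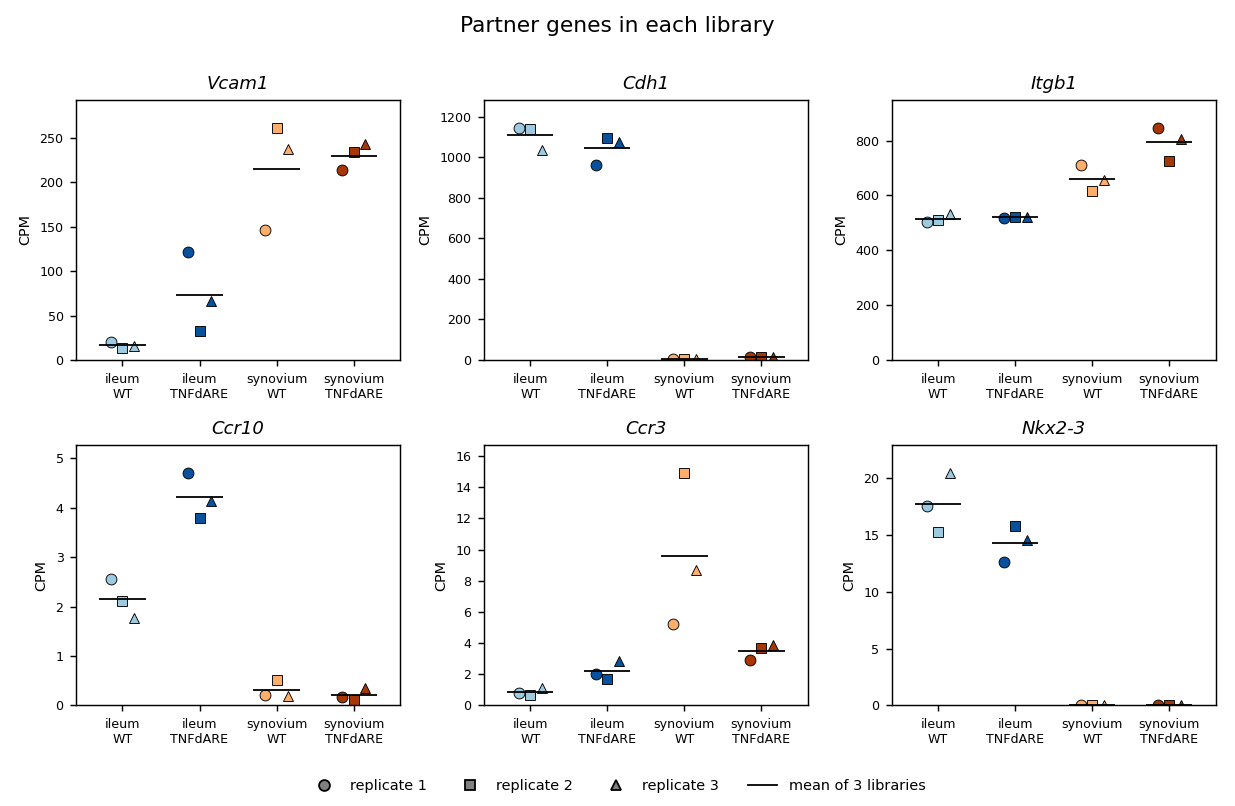
Level of 6 partner genes of the members in CPM (vertical axis, linear, starting at 0) in the 12 libraries by group, with marker shape for the replicate number and a bar for the mean of 3 libraries. The Vcam1 groups are apart in the ileum, where the test was not passed, and overlap in the synovium. Cdh1 is near 14 CPM in TNFdARE synovium against about 1000 CPM or more in the ileum, and Nkx2-3 is an ileum gene.

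Counted over the 9 members, the ileum had 4 genes with TNFdARE above WT in every library (Ccl20, Ccr6, Madcam1 and Itga4) and 1 below (Ccl25). Over all genes tested, 18.9% lay above and 18.4% below without overlap. Their median log2 fold change was 0.98, and 7 of the 9 had an unadjusted p under 0.05, as did 30.5% of all genes tested, with only Ccl20 called after adjustment. In the synovium 4 members lay above without overlap (Ccl20, Madcam1, Itga4 and Itgae) and 0 below, where all genes gave 20.7% and 23.2%, and the median was 0.07. Ccl20 passed the filter there only through its TNFdARE counts, so its place among the 4 was fixed in advance.

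How many members were called in the ileum depended on single libraries and on the method. It was 0 without TNFdARE replicate 3 or any of the 3 WT libraries, and 6 with DESeq2. Without TNFdARE replicate 2 all 9 members passed, 7 higher and 2 lower (Ccl25 and Ccl28), while the number of all genes called went from 879 to 4633. That library had the lowest Ptprc of its group, at 144.7 CPM beside 451.6 and 305.7, and 17.2 CPM of Tnf beside 82.7 and 47.3. Scaling by library size alone moved the median of all ileum genes by 0.11 on the log2 scale, gave 1216 genes higher and 163 lower in place of 637 and 242, and called Madcam1 and Itga4 besides Ccl20. For the interaction the same scaling gave 1379 higher and 627 lower in place of 1154 and 896, whereas RLE factors gave 1011 higher and 1115 lower.

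Between the tissues of WT mice, 6 members were higher in ileum, 2 were lower and Ccr6 did not differ beyond the test, against 74.2% of all genes called (36% higher and 38.2% lower). Itga4 and Itgb7 were the 2 lower in WT ileum, with log2 differences of -1.44 ± 0.33 (adjusted p = 0.00254) and -0.76 ± 0.30 (adjusted p = 0.0411). The call for Itgb7 ended without any 1 of the 6 libraries (adjusted p 0.0599 to 0.107). Itgae was higher in ileum by 4.19 ± 0.34 and Madcam1 by 2.07 ± 0.64 (adjusted p = 9.31e-07 and 0.0127).

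In TNFdARE mice 7 members were higher in ileum and none lower, against 66.7% of all genes called (35% higher and 31.6% lower). Itga4 and Itgb7 overlapped between the tissues (-0.26 ± 0.32 and -0.01 ± 0.30). The Itga4 difference was -0.80 and passed without ileum replicate 1 (adjusted p = 0.0147), and was 0.01 without ileum replicate 2. Ccr6 was among the 7, at 2.95 ± 0.66 (adjusted p = 0.00227), and its tissue difference in WT was -0.81 ± 0.71. The 3 comparisons share libraries, and the change of the tissue difference with genotype is the interaction given above.

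Per kilobase of principal transcript, the order of the members in WT ileum was Ccl25, Ccl28, Itgb7, Itgae, Itga4, Ccl20, Madcam1, Ccr9 and Ccr6. The step from Itgb7 at 7.87 to Itgae at 6.63 CPM per kilobase was within the spread of their libraries, as were those from Itga4 at 3.73 through Ccl20 at 3.53 to Madcam1 at 2.78. In TNFdARE ileum Ccl25 was again the highest; Ccl20 at 27.9 and Ccl28 at 24.1 overlapped in their libraries, and by the union of exons their order was the opposite, 15.6 and 18.6. In WT synovium Itgb7 at 13.4 and Itga4 at 10.1 were the only members above 3 CPM per kilobase. Lengths by the union of exons gave the same first 4 genes in WT ileum.

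Retinoic acid is known to imprint α4β7 and CCR9 on lymphocytes, so the genes of its synthesis and response were counted. In the ileum 2 of 12 tested rose, among them the retinol uptake receptor Stra6 (log2 fold change 4.36 ± 0.78), and none fell. The median of the list was -0.04, and its 14 genes together summed to less in every TNFdARE ileum library, at 357.5 to 417.2 CPM against 508.2 to 549.1 CPM in WT. Aldh1a1, a retinal dehydrogenase, averaged 192.1 CPM in WT and 59.7 CPM in TNFdARE ileum and did not pass (log2 fold change -1.68 ± 0.42, adjusted p = 0.0654). In the synovium 4 rose and 4 fell of 12 tested, among them Stra6, which rose by 3.94, and Aldh1a1, which fell by 1.22. Genes of follicle-associated epithelium and M cells, the cells over Peyer's patches where Ccl20 is made, were listed too. Of these, 2 of 10 tested rose in the ileum, Icam1 and Spib, and in the synovium 6 rose and 2 fell of 10. The list is not confined to such cells. Icam1 is also on the addressin list, and Spib averaged 40.0 CPM in WT synovium and 34.1 with TNFdARE there. Gp2, another gene of the list, was at 0 in every synovium library. Its ileum mean was 0.88 CPM with TNFdARE against 0.139 for WT, without overlap, and it did not pass (adjusted p = 0.0775). The shares of all genes called were 4.12% higher and 1.57% lower in ileum, and 13.1% higher and 10.7% lower in synovium.

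The genes most like each member across the 12 libraries were found by the root mean square difference of log2 CPM, each gene centred on its mean, among 15083 genes. For Itga4 they were the leukocyte genes Ptprc (0.11), Vav1 (0.14) and Ptpn6 (0.16), and for Itgb7 they were Samhd1 (0.16), Tmem229b (0.17) and Jak3 (0.18). For Ccl25 they were Sst (0.20), Ehf (0.23) and Glp2r (0.24). For Ccl28 they were Wwc1 (0.36) and Espn (0.37), and for Ccr9 Scn2b (0.39), Grem1 (0.40) and Derl3 (0.40).

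The other members had looser neighbours. For Itgae the nearest was Myrf (0.31), for Madcam1 Cabp4 (0.40), followed by the chemokine gene Cxcl10 (0.59), and for Ccr6 Trpm2 (0.53), H2-Q6 (0.53) and H2-Q5 (0.55). Ccl20 had no close one, the nearest being H2-M2 at 1.18. The libraries share 4 groups and 2 tissues, and the measure describes that shared pattern.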

How the data were processed

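Ileum and ankle synovium of TNFdARE and littermate WT mice gave 3 libraries per group. Per the labels' protocols, RNeasy Micro RNA was made into TruSeq stranded poly-A libraries and read once, for 100 cycles, on a NovaSeq. Bowtie2 2.3.3.1, cutadapt 1.15 and GRCm38 are named in the submitters' processing notes; a counting tool or annotation is not given in the sources used here. Raw counts by Ensembl identifier, and FPKM values for 17046 genes, are what the authors deposited. None of the deposited FPKM values was 0, although 5756 belonged to a count of 0, so the counts were used and log2(FPKM + 1) was an alternative only. GENCODE M21 matched 98.9% of identifiers.

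Each tissue was fitted on its 6 libraries with edgeR 4.0.16 in R 4.3.3 (filterByExpr, TMM, robust quasi-likelihood F test, two-sided, Benjamini-Hochberg adjustment over all genes tested, threshold 0.05), and every adjusted p is from it unless another tool is named. A 4-group model of all 12 libraries gave the interaction and the tissue contrasts. Group levels are means of 3 libraries; the error after ± is the SE of a log2 difference. Count ratios had 0.5 added to each count before log2, with exact permutation tests. The fits were tested on simulated data. Alternatives were other scalings and filters, DESeq2 1.42.0, limma-voom (limma 3.58.1), a sex term, FPKM, the replicate block, the 12-library model and leaving out each library.

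Same-numbered libraries of a tissue deviated together from their group means (r = 0.232, 0.257 and 0.158 in ileum, and 0.61, 0.36 and 0.231 in synovium). Differently numbered libraries were not compared, and the number also carries sex, so this cannot show that the libraries were paired. The number was used as a block in alternative fits only. The main fits and the exact permutation tests were unpaired. Across tissues r was -0.107 to 0.167, and the numbers were not taken to pair the tissues. Replicates of a group differed from each other by 10.5 to 86.2 times what Poisson sampling gives, and none was taken for a repeat of another.

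The 9 members, the 21 gene lists and the tests were chosen with earlier results of these data known. From each list at most the 4 called genes with the smallest adjusted p were to be named, besides the direct partners of the members. Cell type markers named singly were chosen after their values were seen. The ratios to Epcam, to endothelium and between integrin chains were added after seeing the data. So were the T cell sum without Cd4, the share of genes at an unadjusted p and the ratios within same-numbered libraries. Some genes that these rules select are not reported here.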

Additional observations from a re-analysis of the deposited data

Results flagged for a closer look

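The genotype effect on Ccr6 differed between ileum and synovium by a test of that difference, with an interaction of 3.77 ± 0.96 on the log2 scale (edgeR, adjusted p = 0.0321). Ccr6 was higher in 3 of 3 TNFdARE ileum libraries than in any WT ileum library, and overlapped between genotypes in the synovium. B cell markers were unequal across the same libraries, with 4 of 7 passing the interaction test, and their part in it was not tested.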

How the results depend on the processing

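In the ileum 879 genes and 1 member were called. The numbers were 1379 and 3 with library size alone, 2715 and 6 with DESeq2, 2722 and 5 in the 12-library model, and 0 and 0 with limma-voom, with a sex term or on log2(FPKM + 1). At an unadjusted p under 0.05, edgeR gave 4716 genes and 7 members. Leaving out 1 library gave 0 to 4633 genes and 0 to 9 members. In the synovium (3713 genes, 3 members) the FPKM gave 1 member, and leaving out a library gave 2141 to 2927 genes and 1 to 3 members. For the interaction (2050 genes, 1 member) DESeq2 gave 3193 genes and 2 members, limma-voom 0 members and the replicate block 2 members; leaving out a library gave 1015 to 3506 genes and 0 to 3 members. With the replicate block the ileum calls were 852 higher and 276 lower, and the block changed no call of a member besides those of Madcam1 in synovium, Ccl20 in the interaction and Itgb7 between WT tissues (-0.77, adjusted p = 0.0546, numbers not paired).

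The Ccl20 call in the ileum ended with limma-voom (2.92, adjusted p = 0.0657), a sex term (2.99, 0.0954) and FPKM (2.12, 0.08), and in the synovium with FPKM (0.0651). The Ccr6 interaction ended with limma-voom (3.33, 0.133), Itga4 in synovium with FPKM (0.74, 0.0512), and between WT tissues Madcam1 with limma-voom (2.29, 0.0939) and Itgb7 with limma-voom (0.0585) or no filter (0.0769). Of the values of single members, 341 kept direction and call under the alternatives that kept all libraries, 14 gained a call, 11 lost one and 1 reversed; with a library left out the numbers were 281, 12, 24 and 7. Signs turned only where the difference in the main fit was small. Ccl25 in synovium was 0.03 with FPKM. With 1 library left out, Ccl25 in synovium ran from -0.22 to 0.06 (above 0 without replicate 2 of TNFdARE, 0.02, or of WT, 0.06), Ccr9 from -0.79 to 0.06 (without TNFdARE replicate 1), and Itgb7 from -0.09 (without TNFdARE replicate 2) to 0.15. Between TNFdARE tissues, Itga4 ran from -0.80 to 0.01 (without ileum replicate 2) and Itgb7 from -0.46 to 0.24 (without ileum replicate 2), with 0.15 without synovium replicate 2. The -0.80 of Itga4 came without ileum replicate 1 and passed (adjusted p = 0.0147). The ratio of Itga4 to leukocyte genes in synovium was -0.08 with the pan-leukocyte list, and that of Itgae to Itgb7 in ileum ran from -0.21 to 0.33, being 0.33, 0.00 and 0.04 without TNFdARE replicate 1 and WT replicates 1 and 3. The cause of these changes was not tested. Of the 10 relations of a member to Ptprc, 9 kept their sign under every alternative run. Depth limits Ccr6, Ccr9, Ccl28 and Madcam1 in synovium, where a library held few counts. It also limits 2 of the members called there: Itgae held 10 counts in WT replicate 1, and Ccl20 held 14 in TNFdARE replicate 2 and 0 in WT.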
